A study of Mus musculus with 2 samples.

Results

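Apolipoproteins are the protein part of the particles that carry cholesterol and triglycerides between cells. The genes described here are Apoe, Apoa1, Apoa2, Apob, Apoc1, Apoc2, Apoc3, Apod and Apom, which form a list of 9 mouse genes. Apoc3 was chosen by its agonist to antagonist signal ratio in these data, so that ratio is given as a description, and the other genes were selected as members of its family. Their probes were found by the RefSeq transcript that the array files name for each probe. In all, 8 of the 9 genes had a probe, with 11 of the 55674 probes and 29 of the 59305 spots that were no controls. No probe matched a transcript that RefSeq now lists for Apoc2, the cofactor of lipoprotein lipase. The match is by transcript accession, so a probe designed to an older accession would be missed.

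The samples were ovaries of 2-week-old mice, which the study calls sexually immature. It describes the growth of early follicles as independent of gonadotropins, which was not tested here. The ovaries were cut into symmetrical portions and kept on culture inserts for 3 days, either with agonists or with antagonists of the tachykinin receptors (TKRs, encoded by Tacr1, Tacr2 and Tacr3). The study gives the cutting as a way to lessen errors from comparing different ovaries. Whether the RNAs of the 2 arrays came from portions of the same ovaries is not stated. The TKR agonists were [Sar9, Met(O2)11]-SP for TACR1, GR-64349 for TACR2 and, for TACR3, senktide, a succinylated fragment of substance P. The TKR antagonists were a small molecule for TACR1, GR-94800 for TACR2 and SB218795 for TACR3, each ligand being used at 1 μM. The study's main text describes the antagonist ovaries as treated with all of the antagonists, and does not say this of the agonists. Its array methods join agonists and antagonists alike by "or", while the legend of its PCR figure joins each set by "and". Whether the ligands of a group were given together is thus not certain for the arrays. Each group was 1 single-colour array, so every comparison below sets 1 RNA against 1 RNA, with no test, and without a measure of how much ovaries of the same group differ. How many ovaries gave each RNA, and from which mouse strain they came, is not given in the sources used here, and cultures without any ligand are not analysed here. A lower signal of the whole ovary could mean fewer cells of a type or less RNA per cell, and these cannot be told apart.

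The A and B apolipoproteins build the particles: Apob is the scaffold of chylomicrons and very low density lipoproteins, and Apoa1 and Apoa2 are the main proteins of high density lipoprotein. The small C apolipoproteins move between particles and control how fast triglycerides are cleared, Apoe is the ligand by which remnants are taken up through receptors on the cell surface, and Apod and Apom are lipocalins that bind small lipids, among them sphingosine 1-phosphate for Apom. In follicles, high density lipoprotein and its receptor bring cholesterol to the steroid-making cells, and Apoe is made by many cell types outside the liver, macrophages among them. Apoc1, Apoe, Apoc4 and Apoc2 lie side by side on chromosome 7 of the mouse, and Apoa1, Apoc3, Apoa4 and Apoa5 on chromosome 9.

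The sequence before the transcription start was available for 7 of the 9 genes in RefSeq annotation of GRCm38.p6, with no entry for Apoc3 and Apoc1. The 3 windows below, each of the 250 bases before an annotated start, belong to genes that lay on opposite sides in the comparison of the arrays, namely Apoa1 with the lower signal under agonists and Apod and Apoe with the higher. For Apoe, which has 3 annotated starts, the window of the most upstream start is printed. Capitals mark matches on either strand to the TATA box core TATAAA, to the promoter element CCAAT, and to a pair of repeat units that nuclear receptors bind, which are AGGTCA and the variant spelled GGGTCA.
Apoa1, chr9:46228380-46228629, plus strand: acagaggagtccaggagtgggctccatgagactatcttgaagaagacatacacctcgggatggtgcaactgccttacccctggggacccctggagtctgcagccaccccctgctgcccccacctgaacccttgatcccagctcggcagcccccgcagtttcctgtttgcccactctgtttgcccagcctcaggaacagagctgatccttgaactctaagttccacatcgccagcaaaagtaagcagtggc
Apod, chr16:31314809-31315058, minus strand: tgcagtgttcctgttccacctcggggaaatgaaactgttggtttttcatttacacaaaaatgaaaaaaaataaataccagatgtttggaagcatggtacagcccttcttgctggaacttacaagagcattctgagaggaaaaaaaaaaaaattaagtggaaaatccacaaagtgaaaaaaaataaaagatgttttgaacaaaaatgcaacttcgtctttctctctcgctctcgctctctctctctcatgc
Apoe, chr7:19699189-19699438, minus strand: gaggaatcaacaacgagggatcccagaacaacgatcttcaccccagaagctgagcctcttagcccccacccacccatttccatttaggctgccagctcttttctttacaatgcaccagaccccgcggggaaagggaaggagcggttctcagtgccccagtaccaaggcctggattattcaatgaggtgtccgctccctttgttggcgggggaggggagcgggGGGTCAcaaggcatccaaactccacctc
The Apoa1 and Apod windows held none of the 4 motifs. The Apoe window held 1 GGGTCA, beginning 28 bases before the start. Apom, another gene of the list, had 2 matches of GGGTCA in its window. Among 32851 windows of the same length from the whole annotation, 11.6% held GGGTCA on either strand. The share was 14.0% for the unit AGGTCA, 12.4% for the TATA box core TATAAA, and 33.8% for the element CCAAT, and a window with several motifs was counted for each. The printed windows also differed in base composition, with 58.0% G and C for Apoa1, 57.2% for Apoe and 36.4% for Apod. A match is a description of the letters only.

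Apoc3, Apoa1 and Apom had lower signals with the agonists, Apoc1, Apod and Apoe had higher signals, and Apoa2 was close to equal. Of the 8 genes with a probe, 7 were well above background on both arrays, by the flag that the scanner software sets for each spot. To compare the arrays, the log2 signal of each probe was set relative to its array's 75th percentile (672 units with agonists, 569 with antagonists). A log2 ratio below is the scaled log2 signal with agonists minus that with antagonists, for the brightest probe of a gene. Its error is the scanner software's own estimate for the spots, which covers the measurement of a spot and not the difference between ovaries. This error follows the signal closely and is near 0.20 for bright probes of different genes, so it is not a precision particular to a gene. Each signal on an array depends on its probe as well as on the RNA, so signals are compared between the arrays and not between genes.

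**Figure D1:**
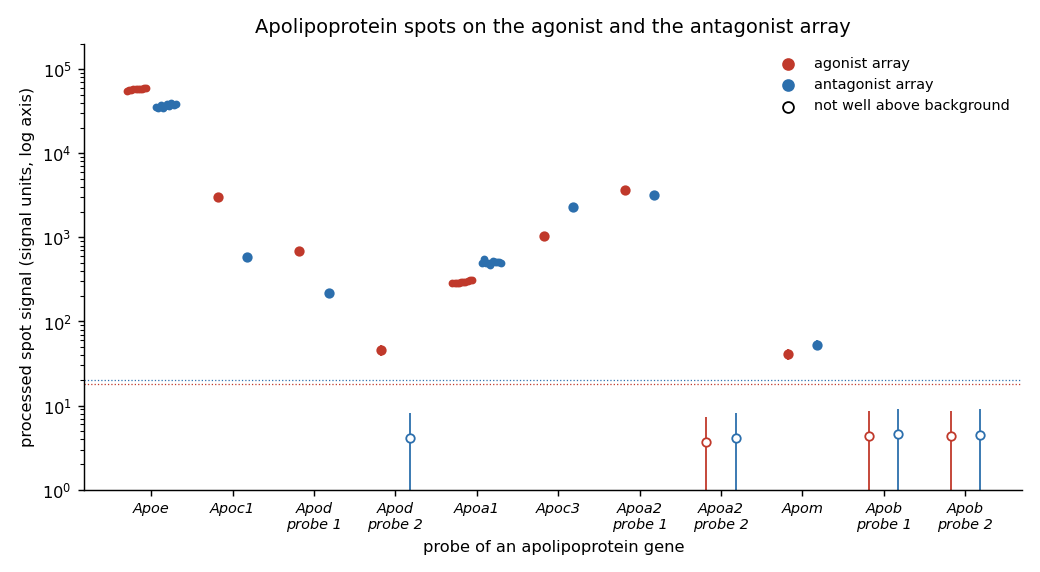
Processed signal of every apolipoprotein spot (vertical log axis, signal units) for each of the 11 probes (horizontal axis) on the agonist array (red) and the antagonist array (blue). Bars on probes with 1 spot are the software's error, open circles are spots not well above background, and the dotted lines mark the lowest signal of a probe well above background, 18.1 units with agonists and 19.9 with antagonists. The 10 Apoe spots and the 10 Apoa1 spots of an array are repeat measurements of the same RNA, and both Apob probes lie under the lines.

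Among the C apolipoproteins, the ratios of Apoc1 and Apoc3 had opposite signs. Apoc1, a small protein that hinders uptake of lipoproteins and inhibits lipid transfer, gave a signal of 3064 units with agonists and 588 with antagonists. Its log2 ratio was 2.14 with a software error of 0.20, or 4.41-fold higher with agonists. Apoc3, which inhibits lipoprotein lipase and slows remnant clearance, gave 1045 units with agonists and 2291 with antagonists. Its log2 ratio was -1.37 with an error of 0.20, or 2.59-fold lower with agonists, the value for which it was put on the list. Both genes rest on 1 probe with 1 spot on each array. The difference between the ratios of Apoc1 and Apoc3, on which a scaling factor common to an array has no effect, was 3.51 on the log2 scale with a combined error of 0.29.

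Of the high density lipoprotein genes, Apoa1 had a lower signal with agonists and Apoa2 a similar one on both arrays. Apoa1, the structural protein of high density lipoprotein and activator of cholesterol esterification, is spotted 10 times on the array. Its spots gave 283 to 315 units with agonists, with a median of 294, and 470 to 548 units with antagonists, with a median of 501. Every antagonist spot was thus above every agonist spot. The gap between the nearest spots was 0.82 in scaled log2 signal, and the share of probes with 10 spots that separate was not counted. The mean was 296 ± 11.1 units (SD, n = 10 spots) with agonists and 506 ± 21.2 units (SD, n = 10 spots) with antagonists, where spots of one array are repeat measurements of the same RNA. The log2 ratio was -1.00, or 2.00-fold lower, with spot by spot ratios from -1.18 to -0.90, an SD of 0.08 between spots and a software error of 0.21. The software marked 3 of the antagonist spots as outliers, and they were left out of the ratio and kept in the means and ranges. The value sits on the 2-fold line and was at or past it under 3 of 7 scalings.

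Apoa2, the second protein of high density lipoprotein, gave 3715 units with agonists and 3222 with antagonists on its bright probe. After scaling its log2 ratio was -0.04 with an error of 0.20, and its sign turned, being above 0 under 5 of 7 scalings. Its other probe, with 3.64 and 4.06 units, was not well above background on either array. Apom, the sphingosine 1-phosphate carrier of high density lipoprotein, gave 40.7 units with agonists and 52.5 with antagonists. Its log2 ratio was -0.61 with an error of 0.28, a wider error that goes with a signal near the lower end of the measured range. It stayed below 0 under 7 of 7 scalings, from -0.67 to -0.33, and no scaling took it past 2-fold.

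Apob, the scaffold of triglyceride-rich particles, was not well above background with either of its 2 probes. They gave 4.35 and 4.30 units with agonists and 4.55 and 4.50 with antagonists. No fold is given for Apob, since both arrays gave only background.

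Apoe gave strong signals on both arrays. Its 10 spots gave 55355 to 59905 units with agonists, with a median of 58710, and 34612 to 39198 units with antagonists, with a median of 37021. Every agonist spot was above every antagonist spot, and the gap between the nearest of them was 0.26 in scaled log2 signal. The log2 ratio was 0.42, or 1.33-fold higher with agonists, with spot ratios from 0.35 to 0.49 and an SD of 0.04 between spots. For scale, the SD of the log2 ratio between spots had a median of 0.07 over the 284 probes that are spotted 10 times and were well above background throughout. With so small a spread, spots can separate at a small ratio. Pparg, also spotted 10 times, had every agonist spot above every antagonist spot at a log2 ratio of 0.24. How many of the 284 probes separate, as Apoa1 and Apoe did, was not counted. The software error for Apoe, 0.20, was wider than its spread between spots.

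Apod, a lipocalin that binds arachidonic acid and progesterone, was brighter with agonists on both of its probes. The first probe gave 685 units with agonists and 221 with antagonists, a log2 ratio of 1.39 with an error of 0.21, or 2.63-fold higher. The second probe gave 45.7 units with agonists and 4.09 with antagonists, and was well above background only with agonists. Taking the lowest signal of a probe well above background on the antagonist array as a limit, the second probe was at least 1.94-fold higher with agonists. This limit was 1.14-fold with the normexp background correction, and lay between 1.14-fold and 2.35-fold over the scalings and corrections tried.

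Of the 7 genes measured on both arrays, 2 were at least 2-fold higher with agonists, Apoc1 and Apod, against 4.01% of the 15258 named genes that were well above background on both arrays. At least 2-fold lower were 2, Apoc3 and Apoa1, against 0.577% of these genes. Since the list was chosen with these ratios known, nothing is read from either count. The median log2 ratio over the 7 genes was -0.04, whose sign turned with the scaling, beside -0.10 over all 15258 genes with an SD of 0.48. In sign, 3 of the 7 genes were above 0 and 4 below, where 37.7% of all genes were above 0 and 62.3% below. At 1.5-fold, 2 of the 7 were higher (9.26% of all genes) and 3 were lower, Apom being added (4.28% of all genes).

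**Figure D2:**
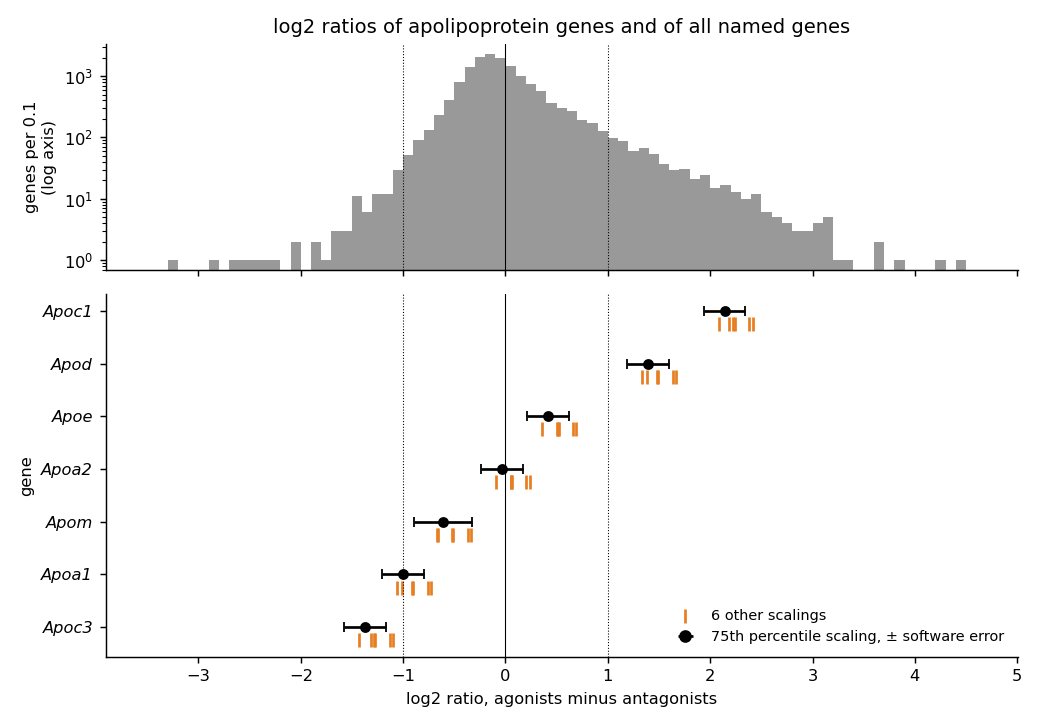
Top, number of named genes per bin of 0.1 in log2 ratio (log vertical axis) for the 15258 genes well above background on both arrays. Bottom, log2 ratio of each apolipoprotein gene (agonists minus antagonists, black, bar is the software error) with the values under 6 other scalings as orange ticks, and dotted lines at 2-fold. Apoc1 and Apod lie right of the 2-fold line and Apoc3 left of it under every scaling shown, Apoa1 lies on the line, and the ticks of Apoa2 lie on both sides of 0.

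The neighbours of these genes were then compared, since the apolipoprotein genes form clusters in the genome. In the cluster on chromosome 7, the 3 apolipoprotein genes with a probe were brighter with agonists. Apoc4 gave 67.7 units with agonists and 8.52 with antagonists, well above background with agonists only, and was at least 2.88-fold higher there (1.48-fold with the normexp correction). The ratio of Apoc1 was larger than that of its neighbour Apoe by 1.72 on the log2 scale, with a combined error of 0.29, so the arrays differed unequally for adjacent genes. The genes around the cluster lay between -0.43 for Clptm1 and 0.92 for Bcam, with Tomm40, next to Apoe, at -0.26 (above 0 under 1 of 7 scalings). Genes around both clusters were chosen after values were seen.

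In the cluster on chromosome 9, Apoa1 and Apoc3 were dimmer with agonists, whereas Apoa4 and Apoa5 were brighter. Apoa4, a protein of intestinal chylomicrons, gave 353 and 250 units and a log2 ratio of 0.26 with an error of 0.21. Apoa5, which favours lipolysis of triglycerides, gave 62.0 and 32.6 units and a log2 ratio of 0.69 with an error of 0.30. The ratio of Apoa4 exceeded that of Apoc3 by 1.63 with a combined error of 0.29, and that of Apoa5 exceeded it by 2.06 with an error of 0.36. With the normexp correction the difference between Apoa5 and Apoc3 was 1.26, more than 1.5 times smaller, Apoa5 being a dim probe. Apoc3 and Apoa1, which are adjacent, differed by 0.37 with a combined error of 0.29. The flanking genes Sik3, Pafah1b2, Sidt2, Zpr1 and Bud13 had log2 ratios from -0.38 to -0.21. Sidt2 and Pafah1b2 were above 0 under 2 of 7 scalings.

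**Figure D3:**
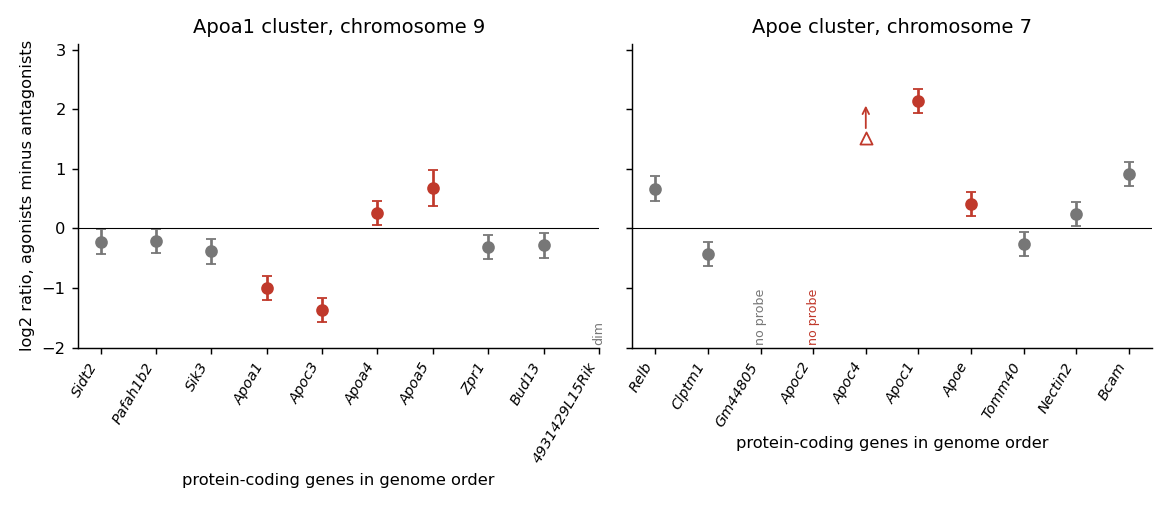
Log2 ratio (agonists minus antagonists, vertical axis, bar is the software error) of the protein-coding genes in genome order around Apoa1 on chromosome 9 and Apoe on chromosome 7, apolipoprotein genes in red and others in grey. The triangle with an arrow is a lower limit for Apoc4, and genes with no probe or a dim probe are marked as such. Apoa1 and Apoc3 lie below their flanking genes and Apoa4 and Apoa5 above 0, while Apoc1 and the limit for Apoc4 lie above Apoe.

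The other apolipoproteins on a list of 11 genes had a median log2 ratio of -0.02 over the 5 detected on both arrays, with a sign that turned under 7 of 11 alternatives, and 0 of the 5 were past 2-fold. Clu, a chaperone-like apolipoprotein of many tissues, gave 48688 units with agonists and 41754 with antagonists and a log2 ratio of -0.02, which was above 0 under 5 of 7 scalings. Apoo and Apool, which carry the family's name and are proteins of the mitochondrial inner membrane, had ratios of -0.09 (above 0 under 3 of 7 scalings) and -0.30. Apol6 gave 79.1 units with agonists and 4.28 with antagonists, and was at least 3.36-fold higher with agonists (1.63-fold with the normexp correction). Apoc4 and Apol6 were thus detected with agonists only, as were 5.19% of the genes detected on either array. Apof, Apoh and Apon were not well above background on either array, and no probe matched Apol8.

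Among the receptors that take up lipoproteins, 7 of 8 were well above background on both arrays, 0 of the 7 were past 2-fold, and their median log2 ratio was 0.28. The Apoe receptor gene Lrp8 had a ratio of -0.65 with an error of 0.30 on a dim probe. Lrp1 had a ratio of 0.28, Vldlr one of 0.08 (-0.11 on its other probe), and the fatty acid and lipoprotein receptor gene Cd36 one of 0.63. Scarb1, the receptor for high density lipoprotein, had a ratio of -0.06, which was above 0 under 5 of 7 scalings. Lrp2, the large endocytic receptor megalin, gave 267 units with agonists and 11.2 with antagonists, was not well above background with antagonists, and was at least 11.3-fold higher with agonists (3.52-fold with the normexp correction).

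The transporters and assembly factors were measured on both arrays for 4 of 6 genes, with 0 past 2-fold and a median of 0.24, which was -0.08 with no filter on dim probes and 0.52 when scaled on spike-in controls. Abca1, which loads cholesterol onto Apoa1, had a log2 ratio of 0.06, and Abcg1, which loads it onto high density lipoprotein, one of 0.52. Mttp, which adds lipid to Apob, gave 210 and 132 units and a ratio of 0.43.

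Of the lipases and plasma lipid enzymes, 10 of 12 were measured on both arrays, with a median of -0.01 whose sign turned under 7 of 11 alternatives. Only Gpihbp1 of these 10, the capillary protein that holds lipoprotein lipase, was past 2-fold, with 7510 units with agonists, 1901 with antagonists and a log2 ratio of 1.74. Lpl, the lipase that Apoc3 inhibits and Apoc2 activates, gave 4915 and 4377 units and a ratio of -0.07, above 0 under 5 of 7 scalings. Its other probe had a ratio of 0.18. Pltp, the phospholipid transfer protein, gave 2139 and 3172 units and a ratio of -0.81. Lcat, the enzyme that Apoa1 activates, had a ratio of -0.69 with an error of 0.34 on a dim probe. Angptl4, an inhibitor of lipoprotein lipase, had a ratio of 0.52.

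Among 11 regulators of apolipoprotein genes, 9 were measured on both arrays, with a median of 0.09, and 2 were at least 2-fold higher with agonists. Nr1h3, the liver X receptor alpha, which activates the Apoe and Apoc1 cluster in macrophages, gave 1670 units with agonists and 575 with antagonists, a log2 ratio of 1.30, and its other probe gave 1.19. Creb3l3, a liver and gut factor that raises Apoa4 and other lipid genes, gave 489 and 160 units and a ratio of 1.37. Nr1h4, the bile acid receptor, had a ratio of 0.37 and Nr5a2, a nuclear receptor of granulosa cells, one of -0.47. Hnf4a, a main activator of Apoc3 and Apoa1 in liver, gave 19.4 units with agonists and 4.81 with antagonists and was too dim for a limit, and Foxa2 was not well above background on either array.

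**Figure D4:**
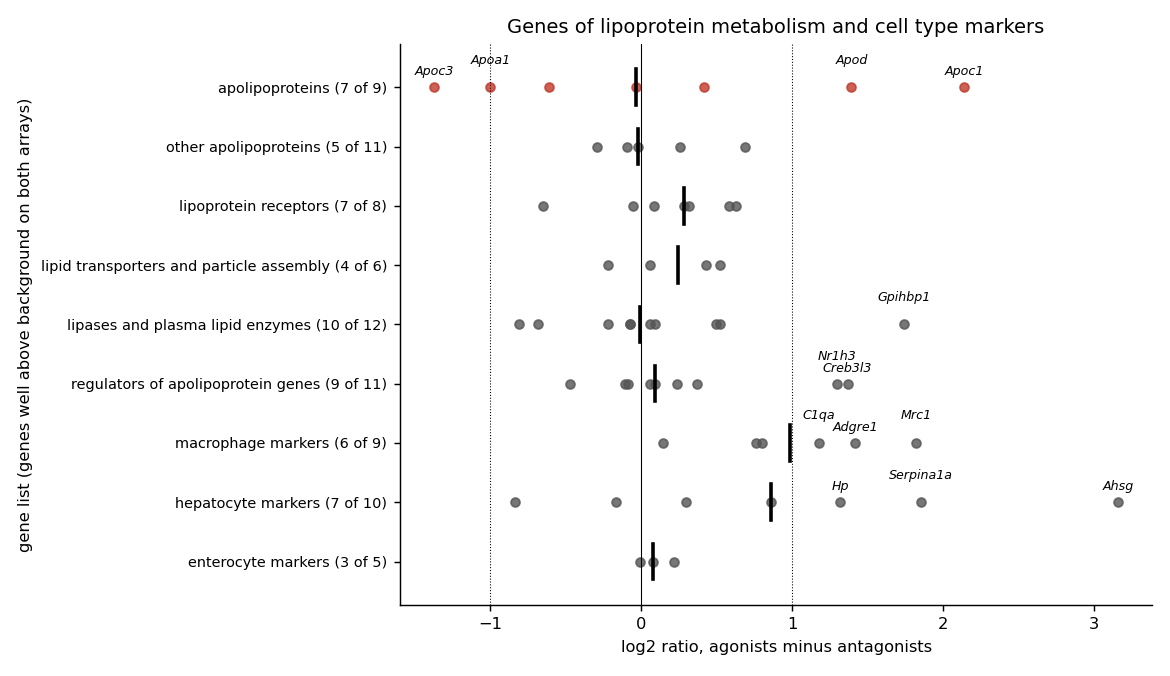
Log2 ratio (agonists minus antagonists, horizontal axis) of each gene well above background on both arrays in 9 gene lists (vertical axis, with the number shown of the number listed), with black bars for the medians and dotted lines at 2-fold. Genes past 2-fold are named. The apolipoproteins spread to both sides, and the macrophage markers lie above 0 on their brightest probes.

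The labelled tissue was checked on marker genes. All 6 granulosa cell markers and all 6 oocyte markers were well above background on both arrays, with Gdf9 of the oocyte at 95396 and 85421 units. The granulosa cell markers had a median log2 ratio of -0.57, with 4 of 6 below 0, and the oocyte markers one of 0.07. The 4 theca markers measured had one of -0.10, whose sign turned with the scaling. Lhcgr, also on the theca list, gave 4.29 and 4.49 units, not well above background on either array, and no probe matched Insl3. Markers of the vessel wall and of stroma had medians of 0.45 and 0.41. Some markers differed in sign between probes. Foxl2 of granulosa cells had a ratio of 0.32 on its brightest probe and -0.37 on its other. Kdr of the vessel wall had -0.27 and 0.38.

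Macrophage markers were brighter with agonists, as were Apoe, Apoc1 and Apod. Of 9 listed, 6 were well above background on both arrays, 6 of these 6 had a ratio above 0 and 3 were at least 2-fold higher with agonists, with a median of 0.99. Mrc1, the mannose receptor, had a ratio of 1.82, Adgre1, the F4/80 antigen, one of 1.42, and C1qa one of 1.18, whereas Csf1r had one of 0.15. Other probes gave 0.72 for Adgre1, and -0.09 and 0.04 for Csf1r. The signals of the list summed to 9025 units with agonists and 5651 with antagonists, Cd163 was not well above background on either array, and no probe matched Cd68. The part of macrophages in the apolipoprotein signals was not tested.

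Apoc3, Apoa1 and Apoa2 are best known from liver and gut. Of the 10 hepatocyte markers listed, Alb, Afp and Fgb were not well above background on either array. The other 7 were measured on both, with a median of 0.86 (0.26 with the normexp correction and 0.36 with no filter on dim probes). Among these, Ahsg had a log2 ratio of 3.16, Serpina1a one of 1.86 and Hp one of 1.32, and Fgg one of -0.83, and the list summed to 4672 units with agonists and 952 with antagonists, of which Ahsg alone gave 3422 and 324. The enterocyte markers Fabp1 and Alpi were not well above background, and the other 3 of 5 had a median of 0.08 whose sign turned under 2 of 11 alternatives. The enterocyte list summed to 791 units with agonists and 601 with antagonists, of which Vil1 alone gave 686 and 501. Of the 7 adipocyte markers, 3 were measured on both arrays, with a median of 0.59 that was -0.19 with no filter on dim probes. Fabp4 had a ratio of 3.82, Plin1 one of 0.59 and Retn one of -0.79, Cfd was detected with antagonists only and was at least 1.43-fold lower with agonists, and Adipoq and Lep were not well above background. The list summed to 893 units with agonists and 193 with antagonists, of which Fabp4 alone gave 739 and 44.2. The part of such cells in the apolipoprotein signals was not tested.

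The genes nearest to Apoc3 in the scaled log2 signals of the 2 arrays, by straight-line distance, were Malat1 at 0.15, Mycl at 0.30 and Tm7sf2 at 0.34. Malat1, a nuclear noncoding RNA, gave 955 units with agonists and 2160 with antagonists, a log2 ratio of -1.42. The genes nearest to Apoe were Cygb at 0.18, the matrix protein gene Mgp at 0.19 and Gstm2 at 0.22. Mgp gave 56001 and 32514 units, a ratio of 0.54. With 2 arrays, nearness means only a like signal on each.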

How the data were processed

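RNA of 2 cultured ovary samples was labelled by the study with a single dye and hybridised to Agilent mouse gene expression arrays on the same slide. Per the file headers, Agilent Feature Extraction 10.10.1.1 made the deposited processed signal (an intensity, background-subtracted, in linear units) and the flags of each spot. The authors' value table holds the same signal times a constant, 1.99 for the agonist and 2.19 for the antagonist array.

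The members and lists were chosen with earlier results of these data known, and 2 genes first listed among receptors and regulators are not reported here. Control spots and spots marked as outliers were left out. Each log2 signal was centred on its array's 75th percentile, then averaged over repeated spots. A gene is its brightest probe. Well above background means that the flag was set on over 50% of a probe's spots, 65.4% of spots doing so with agonists and 61.6% with antagonists, and 0 were saturated. A probe so on only 1 array has a lower limit of the fold. Genes named were all members, every list gene with a stated count or level, and the 3 genes nearest to Apoc3 and to Apoe.

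With 1 array per group, no test was made, and the number of arrays limits the precision. The alternatives were 6 scalings, the normexp correction (limma 3.58.1 in R 4.3.3, offset 50), the median over spots, outlier spots kept, the mean over probes, no filter and a 1.5-fold threshold. Python 3.11.15 with pandas 2.3.3 did the rest, checked on simulated data. Probes were named through RefSeq transcripts, and promoter windows were taken from RefSeq on GRCm38.p6, a build other than that of the array annotation.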

Additional observations from a re-analysis of the deposited data

How the results depend on the processing

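The sign of the log2 ratio stayed as reported under all 11 alternatives for Apoc3, Apoa1, Apom, Apoe, Apoc1 and Apod, while that of Apoa2 changed under 5. Not all alternatives could change a ratio. For Apoc3, Apoc1 and Apom, with 1 probe of 1 spot, the median over spots, outlier spots kept, mean over probes and no filter return the same value. Most scalings add the same constant to every gene. Apoc3 lay between -1.43 and -1.10, at -1.13 with no scaling and -1.10 when scaled on spike-in controls. Apoa1 lay between -1.06 and -0.72, Apoc1 between 2.00 and 2.42, Apoe between 0.36 and 0.69, and Apod between 1.25 and 2.32. The upper end for Apod came from the mean over its probes. That mean takes in its second probe, which was not well above background with antagonists, so 2.32 is not a measured ratio. Apolipoprotein genes at least 2-fold higher numbered 2 under all 12 alternatives. Those at least 2-fold lower numbered 1, Apoc3, with no scaling, spike-in controls, the 75th percentile of probes detected on both arrays, the authors' values or normexp, where Apoa1 lay inside the 2-fold line, and 3 at 1.5-fold, with Apom. The median over the apolipoprotein genes was 0.21 with no scaling and 0.24 when scaled on spike-in controls. Under these alternatives, 220 values were compared, of the members other than Apoc3 and of the gene lists. Of these, 28 changed sign, 36 moved past a limit without doing so, and 156 did neither. That limit was a member's own software error, or for a gene list the median software error of the members. Values that an alternative could not change are counted among the 156.

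After probes dim on either array were left out, 33073 remained. Of these, 890 were at least 2-fold higher with agonists and 233 lower. Unscaled arrays gave 1499 higher and 98 lower, spike-in scaling 1625 higher and 88 lower, and normexp 410 higher and 60 lower. Without the filter on dim probes there were 3339 higher and 2333 lower, at 1.5-fold 2299 higher and 1620 lower, and in the authors' values 1099 higher and 149 lower. The higher share of these calls was 79.3%, against 93.9% for unscaled arrays and 94.9% for spike-in scaling. Those settings moved the median log2 ratio of the 33073 probes from -0.10 to 0.14 and 0.18. The cause of these shifts was not tested. No paired analysis was possible because each group had 1 array. Apom, at 40.7 and 52.5 units, lay near the lowest signals measured, 18.1 and 19.9 units, and its ratio is the least precise of those given for the list.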
